A study of Mus musculus with 12 samples.

Results

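Autophagy wraps parts of the cytoplasm in a double membrane and delivers them to the lysosome, and mitophagy is its form for mitochondria. Of the 38 autophagy and mitophagy genes described here, 36 had an array feature (a probe set summarised to 1 value) that named the gene alone, and 35 were bright enough to be tested. They are listed by name and role: the genes of initiation, membrane supply, conjugation, cargo binding and the lysosome membrane, and a pair of transcription factors that act on them. Optn, a cargo receptor gene, had no feature listed under its name. The feature of Pink1, the kinase that marks damaged mitochondria, also named a microRNA gene, so no value is given for either. Bnip3, a mitophagy receptor gene, had a value above the filter of 5.3 in only 1 array and was not tested.

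The cells were erythroblasts that had been sorted out of spleens, taken from male mice 3 days after phenylhydrazine. The drug breaks down circulating red cells, and the spleen answers with stress erythropoiesis, an emergency production of new ones. The mice had eaten a selenium-deficient or a selenium-adequate diet for 3 months. All 4 groups had the drug, and each held 3 arrays: deficient basophilic erythroblasts, adequate basophilic erythroblasts, deficient proerythroblasts and adequate proerythroblasts. Proerythroblasts are the earliest red cell precursor that can be recognised under the microscope, and basophilic erythroblasts are the next stage. The labels give no strain, age or sort markers, and do not say whether the arrays of a group came from separate mice, so the p-values measure only the spread between these arrays, which may be technical.

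Red cells lose their mitochondria and other organelles as they mature. In the mouse, the mitophagy receptor Bnip3l (also called Nix) and the kinase Ulk1 are needed for the timely loss of mitochondria from reticulocytes, and Foxo3 is a transcription factor of maturing erythroblasts that acts on autophagy genes. These roles are background and were not measured here.

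The values were deposited on a log2 scale, so a difference of 1 is a doubling, and levels of different genes were not compared because each feature has its own brightness. Marker genes were set against the labels. The mean over 10 erythroid genes lay at 10.6 to 11.2 in deficient and 11.0 to 11.4 in adequate basophilic erythroblasts. It lay at 10.4 to 10.7 in deficient and 9.91 to 10.2 in adequate proerythroblasts. The stages overlapped on the deficient diet, through deficient basophilic replicate 2 alone. The mean over 5 progenitor genes lay at 6.06 to 6.44 and 6.04 to 6.27 in deficient and adequate basophilic erythroblasts, and at 6.82 to 7.01 and 7.89 to 8.06 in deficient and adequate proerythroblasts. Deficient basophilic replicate 3 has a description that names proerythroblasts, against its title and cell type label; its correlation over all features was 0.986 and 0.910 with deficient basophilic replicates 1 and 2, and 0.969, 0.962 and 0.969 with deficient proerythroblast replicates 1, 2 and 3. On either diet basophilic replicate 2 was unlike its group, its background being 4.70 (deficient) and 4.19 (adequate), against at most 3.80 in the other arrays. Replicate 2 was the highest array of both basophilic groups for 12 of the 35 tested genes and the lowest of both for 15, against 40.6% and 32.4% of the 20128 genes tested.

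**Figure D1:**
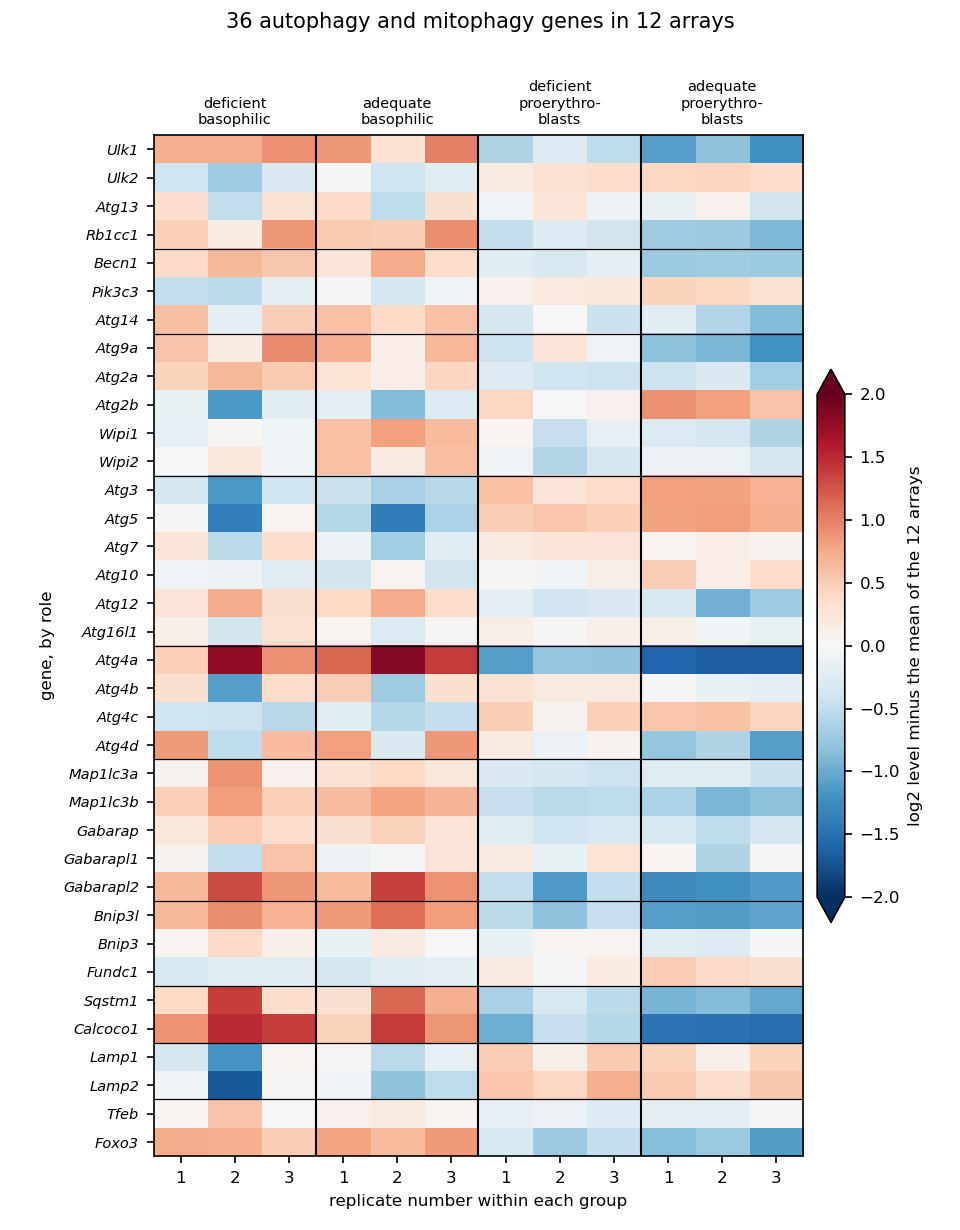
Log2 level of each measured gene in the 12 arrays, shown as the difference from the gene's mean over all arrays (colour scale in log2 units), with genes in rows by role and arrays in columns by group. Ulk1, Atg4a, Gabarapl2, Bnip3l and Calcoco1 are above their means in all 6 basophilic arrays and below them in all 6 proerythroblast arrays.

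The stage comparison asked how the genes differed between basophilic erythroblasts and proerythroblasts on each diet. On the deficient diet 15 of the 35 genes were higher and 8 were lower in basophilic erythroblasts at an adjusted p under 0.05 (limma, Benjamini-Hochberg over all 20128 genes), beside 56.0% of all genes called, 31.1% higher and 24.9% lower. On the adequate diet 19 were higher and 8 lower, beside 54.2% of all genes, 28.7% higher and 25.6% lower. The medians of the 35 log2 changes were 0.38 on the deficient and 0.64 on the adequate diet, against 0.08 and 0.12 over all genes. On both diets 15 genes rose (22.7% of all genes did) and 6 fell (19.4%), 6 passed on the adequate diet alone, 2 on the deficient diet alone and 6 on neither. The 3 arrays of each stage did not overlap for 26 of the 35 genes on the deficient diet (66.5% of all genes) and for 31 on the adequate diet (74.0%). Without replicate 2 of both basophilic groups 17 were higher and 8 lower on the deficient diet, beside 32.1% and 26.6% of all genes. On the adequate diet 22 were higher and 10 lower, beside 38.9% and 29.3%. The 8 lower on the deficient diet were 4 without deficient proerythroblast replicate 1 (16.4% of all genes were lower), 4 without replicate 3 of that group (14.7%), and 3 with the arrays of the contrast only (11.1%). A count on 1 diet alone does not show that the diets differed. Centring each array on its median moved the all-gene medians to -0.12 (deficient) and -0.09 (adequate), the members' medians to 0.18 and 0.43, and the split of the members to 14 higher and 10 lower (deficient) and 16 and 8 (adequate). With quantile normalization the split was 18 and 5 (deficient) and 18 and 7 (adequate), and the members' medians were 0.66 and 0.86, against 0.13 and 0.11 over all genes. With median centring 17.3% of all genes were higher and 30.0% lower (deficient), and 10.7% and 30.0% (adequate). The shares with quantile normalization were 22.2% and 18.6% (deficient), and 11.8% and 20.7% (adequate). Of all genes called, the share higher on the deficient diet was 55.5%, and 36.6% with median centring. On the adequate diet it was 52.9%, 26.3% with median centring and 36.3% with quantile normalization. The means over 14 macrophage markers were 6.08 to 6.54 in deficient and 6.03 to 6.51 in adequate basophilic erythroblasts. In proerythroblasts they were 5.80 to 6.60 (deficient) and 5.54 to 6.73 (adequate). On each diet these stages overlapped only through proerythroblast replicate 3, and the other proerythroblast arrays lay below all basophilic arrays. The 14 neutrophil markers had means of 6.25 to 6.72 in deficient and 5.91 to 6.29 in adequate basophilic erythroblasts, against 7.01 to 7.90 in deficient and 6.58 to 7.76 in adequate proerythroblasts. The means over 6 megakaryocyte and platelet markers were 6.90 to 6.94 and 6.70 to 6.78 in deficient and adequate basophilic erythroblasts, against 6.20 to 6.52 and 6.24 to 6.30 in deficient and adequate proerythroblasts. The part of these cells in the stage changes was not tested. In these sorted pools a difference in the number of cells of a type and a difference in RNA per cell cannot be told apart.

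**Figure D2:**
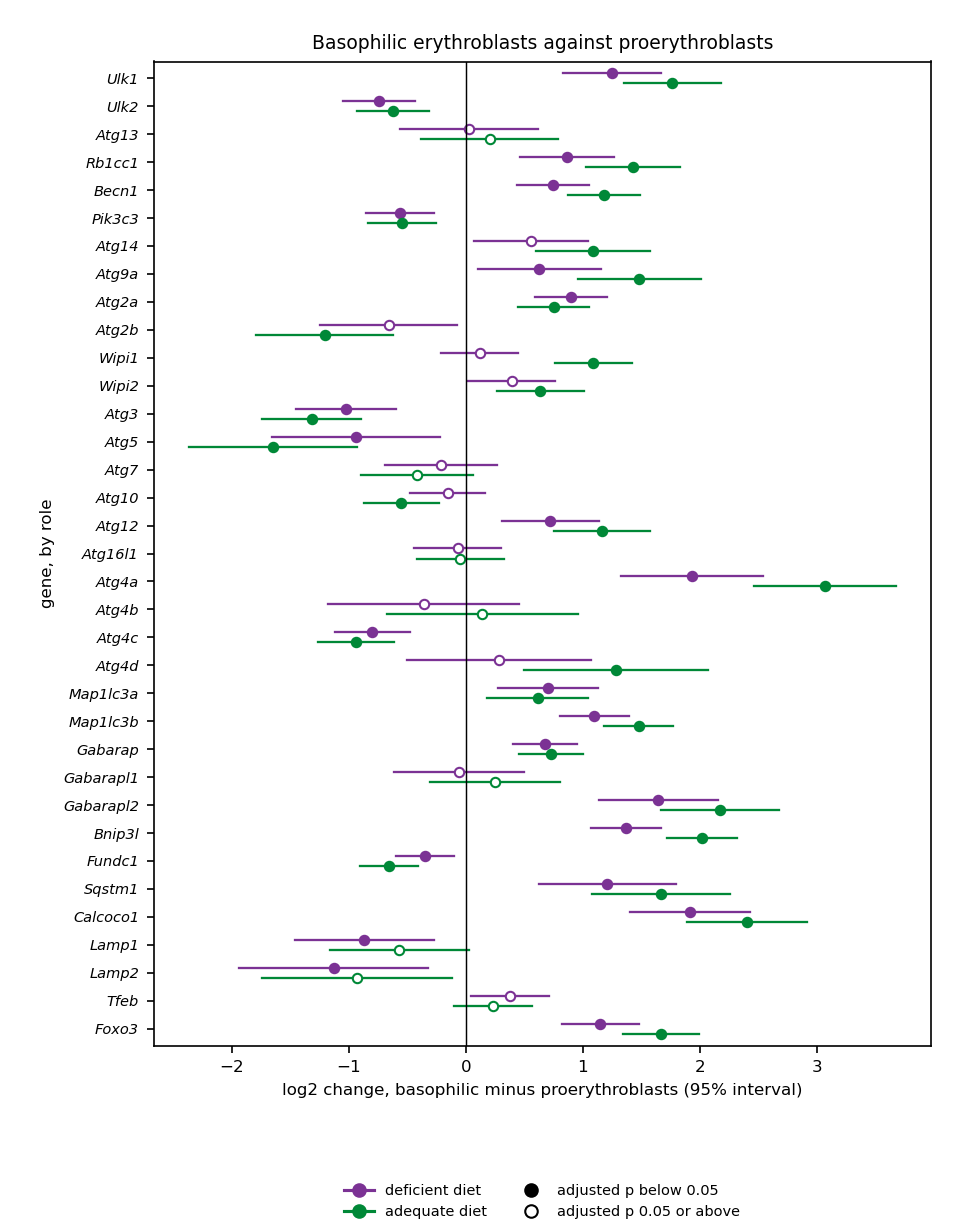
Log2 change from the limma fit, basophilic erythroblasts minus proerythroblasts, with its 95% interval for each tested gene on the deficient and the adequate diet; filled points have an adjusted p under 0.05. The genes range from Atg4a, at 1.94, to Lamp2, at -1.13, on the deficient diet, and from Atg4a, at 3.07, to Atg5, at -1.65, on the adequate diet.

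Genes of the ULK1 complex, the kinase complex that starts autophagy, did not move one way. Ulk1 encodes the kinase itself, and its log2 level was 10.10, 10.11 and 10.31 in deficient and 10.26, 9.68 and 10.40 in adequate basophilic erythroblasts, against 8.78, 9.11 and 8.88 in deficient and 8.29, 8.58 and 8.17 in adequate proerythroblasts. All 6 basophilic arrays lay above all 6 proerythroblast arrays. Ulk1 rose by 1.25 (SE 0.19, adjusted p = 0.00109) on the deficient diet and by 1.77 (SE 0.19, adjusted p = 3.14e-05) on the adequate diet, which are 2.38-fold and 3.40-fold. Rb1cc1, which encodes the scaffold FIP200 of the complex, had 8.25, 7.93 and 8.64 in deficient and 8.30, 8.26 and 8.71 in adequate basophilic erythroblasts, against 7.29, 7.52 and 7.41 in deficient and 7.06, 7.04 and 6.88 in adequate proerythroblasts. Its stages did not overlap on either diet, and it rose by 0.87 (SE 0.18, adjusted p = 0.00605) on the deficient and by 1.43 (SE 0.18, adjusted p = 1.11e-04) on the adequate diet. Ulk2, the gene of the related kinase, fell on both diets, with log2 changes of -0.74 and -0.62 on the deficient and adequate diet. Atg13, an adaptor of the complex, passed on neither diet (0.03 and 0.20), and its replicate 2 was the lowest array of both basophilic groups, at 7.89 and 7.88.

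The class III PI3-kinase complex makes the lipid that marks the site of a forming autophagosome, and its members also split. Becn1, the gene of the regulatory subunit Beclin 1, had 9.42, 9.68 and 9.57 in deficient and 9.28, 9.78 and 9.39 in adequate basophilic erythroblasts, against 8.83, 8.74 and 8.86 in deficient and 8.29, 8.33 and 8.29 in adequate proerythroblasts. Every basophilic array was above every proerythroblast array, and the change was 0.75 (SE 0.14, adjusted p = 0.00344) on the deficient and 1.18 (SE 0.14, adjusted p = 6.72e-05) on the adequate diet. Pik3c3, which encodes the catalytic subunit, fell on both diets (-0.56 on the deficient and -0.54 on the adequate diet), but not with quantile normalization, where the adjusted p was 0.266 and 0.142. Atg14, which steers the complex to autophagy, had 7.66, 6.86 and 7.56 in deficient and 7.65, 7.46 and 7.65 in adequate basophilic erythroblasts, against 6.72, 7.05 and 6.63 in deficient and 6.83, 6.48 and 6.19 in adequate proerythroblasts. The stages overlapped on the deficient diet, where 0.56 had an adjusted p of 0.0503, and not on the adequate diet, where Atg14 rose by 1.09 (SE 0.22, adjusted p = 0.00285).

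Genes of membrane and lipid supply are those of the vesicles, lipid transfer proteins and lipid readers that build the membrane. Atg9a, which encodes a scramblase of the vesicles that seed the membrane, had 9.36, 8.93 and 9.73 in deficient and 9.50, 8.92 and 9.46 in adequate basophilic erythroblasts, against 8.37, 9.05 and 8.72 in deficient and 7.97, 7.88 and 7.58 in adequate proerythroblasts. Deficient proerythroblast replicate 2 lay above basophilic replicate 2 of either diet, and the other basophilic arrays lay above all proerythroblast arrays. Atg9a rose by 0.63 (SE 0.24, adjusted p = 0.0440) on the deficient diet, a call that ended in 13 of 24 alternatives, and by 1.48 (SE 0.24, adjusted p = 5.93e-04) on the adequate diet. Atg2a, a gene of a lipid transfer protein, had 9.21, 9.43 and 9.28 in deficient and 9.03, 8.90 and 9.19 in adequate basophilic erythroblasts, against 8.51, 8.37 and 8.34 in deficient and 8.34, 8.47 and 8.06 in adequate proerythroblasts. The stages did not overlap, and it rose by 0.90 (SE 0.14, adjusted p = 0.00121) and 0.75 (SE 0.14, adjusted p = 0.00146) on the deficient and adequate diet. Its paralog Atg2b had negative changes, -0.66 (adjusted p = 0.0527) on the deficient and -1.21 on the adequate diet, where it fell. Wipi1 encodes a reader of the lipid made by the PI3-kinase, and its level was 8.49, 8.68 and 8.57 in deficient and 9.24, 9.47 and 9.29 in adequate basophilic erythroblasts, against 8.69, 8.2 and 8.49 in deficient and 8.38, 8.30 and 8.05 in adequate proerythroblasts. Only the adequate basophilic arrays stood above the rest: the change was 0.12 (SE 0.15, adjusted p = 0.499) on the deficient diet, which did not pass, and 1.09 (SE 0.15, adjusted p = 1.86e-04) on the adequate diet. Wipi2, a related reader that recruits the conjugation machinery, had 0.39 (adjusted p = 0.0648) on the deficient diet and rose by 0.64 on the adequate diet, though not with median centring (adjusted p = 0.0826).

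The conjugation system attaches LC3-type proteins to membrane lipid, and 2 of its genes fell on both diets while 1 rose on both. Atg3, the gene of the enzyme that passes LC3 to lipid, had 6.98, 6.16 and 6.91 in deficient and 6.88, 6.66 and 6.75 in adequate basophilic erythroblasts, against 7.89, 7.57 and 7.67 in deficient and 8.13, 8.11 and 8.01 in adequate proerythroblasts. No basophilic array reached the lowest proerythroblast array, and it fell by 1.03 (SE 0.20, adjusted p = 0.00353) on the deficient and 1.32 (SE 0.20, adjusted p = 3.04e-04) on the adequate diet, or 2.04-fold and 2.5-fold lower. Atg5, part of the complex that directs this step, had 7.56, 6.18 and 7.59 in deficient and 6.97, 6.15 and 6.91 in adequate basophilic erythroblasts, against 8.04, 8.09 and 8.02 in deficient and 8.34, 8.37 and 8.27 in adequate proerythroblasts. The stages did not overlap, replicate 2 was the lowest array of both basophilic groups, and it fell by 0.94 (SE 0.33, adjusted p = 0.0320) on the deficient and 1.65 (SE 0.33, adjusted p = 0.00233) on the adequate diet. Without deficient basophilic replicate 2 its change on the deficient diet was -0.47 with an adjusted p of 0.0764, and the call also ended without any 1 of the 3 deficient proerythroblast arrays. Atg12, the gene of the protein joined to Atg5, ran the other way: 7.95, 8.44 and 8.02 in deficient and 8.10, 8.44 and 8.07 in adequate basophilic erythroblasts, against 7.51, 7.32 and 7.41 in deficient and 7.39, 6.74 and 6.99 in adequate proerythroblasts. It rose by 0.72 (SE 0.19, adjusted p = 0.0130) and 1.16 (SE 0.19, adjusted p = 6.00e-04) on the deficient and adequate diet, and its stages did not overlap. Atg10, the gene of the enzyme that joins Atg12 to Atg5, fell on the adequate diet (-0.55, adjusted p = 0.0521 without adequate proerythroblast replicate 1) and had -0.16 on the deficient diet. It was dim, at 5.21, 5.20 and 5.09 in deficient and 4.93, 5.35 and 4.92 in adequate basophilic erythroblasts, around the filter of 5.3. Atg7, the activating enzyme for both conjugations, and Atg16l1, the third part of the Atg5 complex, passed on neither diet. Their changes were -0.21 and -0.42 for Atg7, and -0.07 and -0.05 for Atg16l1, on the deficient and adequate diet.

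The Atg4 proteases trim LC3-type proteins before conjugation and release them from membranes, and Atg4a had the largest stage change of the 35 genes on the adequate diet. Its level was 10.67, 11.97 and 11.11 in deficient and 11.35, 12.02 and 11.60 in adequate basophilic erythroblasts, against 9.10, 9.43 and 9.41 in deficient and 8.62, 8.57 and 8.56 in adequate proerythroblasts. Every basophilic array was over 1 log2 unit above every proerythroblast array, and replicate 2 was the highest of both basophilic groups. Atg4a rose by 1.94 (SE 0.28, adjusted p = 7.85e-04) on the deficient and by 3.07 (SE 0.28, adjusted p = 9.58e-06) on the adequate diet, which are 3.83-fold and 8.42-fold. Its change on the deficient diet was 1.58 without deficient basophilic replicate 2. A near-identical copy, the pseudogene Atg4a-ps, shares sequence with Atg4a, so its part in the signal cannot be told apart. Atg4c moved the other way, with 5.34, 5.33 and 5.18 in deficient and 5.53, 5.17 and 5.26 in adequate basophilic erythroblasts, against 6.23, 5.81 and 6.21 in deficient and 6.29, 6.33 and 6.16 in adequate proerythroblasts. It fell by 0.80 (SE 0.15, adjusted p = 0.00304) on the deficient and 0.94 (SE 0.15, adjusted p = 4.74e-04) on the adequate diet, and its stages did not overlap. Its basophilic values lie around the filter of 5.3. Atg4d rose on the adequate diet (1.29; adjusted p = 0.0510 without adequate basophilic replicate 3) and had 0.28 on the deficient diet, and Atg4b passed on neither (-0.36 on the deficient and 0.14 on the adequate diet).

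Promoter windows from 250 bases before to 50 after the start site (RefSeq, GRCm38.p6) were at hand for 31 of the 38 genes, 35 windows in all. They were searched on both strands for AGATAA, letters bound by the erythroid factor GATA1, for GTAAACA, bound by FOXO factors, and for CACGTG, an E-box of the kind bound by TFEB. AGATAA was in 2 of the 35 windows (5.71%, against 11.2% of all 32851), those of Atg4a and Atg4d, and GTAAACA was in none (3.65% of all). CACGTG was in 6 windows (17.1%, against 7.15% of all), those of Atg14, Atg3, Atg5, Atg7, Bnip3 and Lamp1. The median share of G and C letters was 60.0% in the 35 windows, against 52.7% in all windows. Its part in these 3 contrasts was not tested. The 3 windows shown were chosen after the values were seen, the first pair because they hold AGATAA in genes of the same protease family, and Lamp1 because it holds CACGTG 4 times. They are at chrX:140953595-140953894 for Atg4a (the first of its 2 windows), chr9:21265035-21265334 for Atg4d and chr8:13158911-13159210 for Lamp1, all on the plus strand, with the matched letters in capitals. Such a match is a description and not a bound site.
Atg4a: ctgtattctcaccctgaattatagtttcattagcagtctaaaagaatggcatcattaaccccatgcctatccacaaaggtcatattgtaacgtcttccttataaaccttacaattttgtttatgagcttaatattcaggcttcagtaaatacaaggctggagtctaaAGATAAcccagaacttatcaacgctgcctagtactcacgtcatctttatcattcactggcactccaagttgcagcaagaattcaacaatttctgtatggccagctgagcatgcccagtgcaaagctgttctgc
Atg4d: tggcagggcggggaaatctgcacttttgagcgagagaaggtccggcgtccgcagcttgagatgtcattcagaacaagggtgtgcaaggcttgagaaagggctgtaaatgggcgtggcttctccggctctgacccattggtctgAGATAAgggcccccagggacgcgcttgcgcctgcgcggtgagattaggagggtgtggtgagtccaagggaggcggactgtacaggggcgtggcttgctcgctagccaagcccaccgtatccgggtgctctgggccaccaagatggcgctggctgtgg
Lamp1: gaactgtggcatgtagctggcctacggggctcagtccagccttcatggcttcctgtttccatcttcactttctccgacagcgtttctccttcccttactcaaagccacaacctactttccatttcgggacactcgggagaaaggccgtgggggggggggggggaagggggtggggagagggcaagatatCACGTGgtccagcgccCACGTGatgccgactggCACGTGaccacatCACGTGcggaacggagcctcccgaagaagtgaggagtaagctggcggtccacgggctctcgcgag
In these windows AGATAA begins at position -83 of Atg4a and -107 of Atg4d relative to the start site, and CACGTG begins at -61, -45, -28 and -15 of Lamp1.

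LC3 and GABARAP proteins coat the growing membrane and hold cargo receptors, and 4 of the 5 genes measured rose on both diets. Map1lc3b, the gene of the usual LC3 form, had 9.14, 9.50 and 9.13 in deficient and 9.27, 9.44 and 9.33 in adequate basophilic erythroblasts, against 8.2, 8.12 and 8.15 in deficient and 8.03, 7.74 and 7.83 in adequate proerythroblasts. Its stages lay well apart, and it rose by 1.1 (SE 0.13, adjusted p = 3.44e-04) on the deficient and 1.48 (SE 0.13, adjusted p = 1.03e-05) on the adequate diet. Gabarapl2 (also called GATE-16) had 11.94, 12.59 and 12.14 in deficient and 11.91, 12.64 and 12.18 in adequate basophilic erythroblasts, against 10.78, 10.15 and 10.80 in deficient and 10.02, 10.05 and 10.14 in adequate proerythroblasts. Its basophilic arrays were all above 11.9 and its proerythroblast arrays all below 10.9, and it rose by 1.65 (SE 0.23, adjusted p = 7.30e-04) and 2.17 (SE 0.23, adjusted p = 2.96e-05) on the deficient and adequate diet. Gabarap itself had 8.72, 9.01 and 8.85 in deficient and 8.83, 8.97 and 8.74 in adequate basophilic erythroblasts, against 8.26, 8.11 and 8.18 in deficient and 8.2, 8.0 and 8.16 in adequate proerythroblasts. The gap between the stages was narrower, and it rose by 0.68 (SE 0.12, adjusted p = 0.00296) and 0.73 (SE 0.12, adjusted p = 8.48e-04). Map1lc3a, a second LC3 gene, rose by 0.70 and 0.61. The deficient call ended without deficient proerythroblast replicate 3 (adjusted p = 0.0531). The adequate call ended with quantile normalization, with median centring and without any 1 of 4 adequate arrays (adjusted p up to 0.0797). Gabarapl1 did not pass: its level was 9.70, 9.14 and 10.21 in deficient and 9.54, 9.62 and 9.89 in adequate basophilic erythroblasts, against 9.82, 9.50 and 9.91 in deficient and 9.67, 9.04 and 9.59 in adequate proerythroblasts. The stages overlapped on both diets, and the changes were -0.06 (adjusted p = 0.848) and 0.25 (adjusted p = 0.408).

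**Figure D3:**
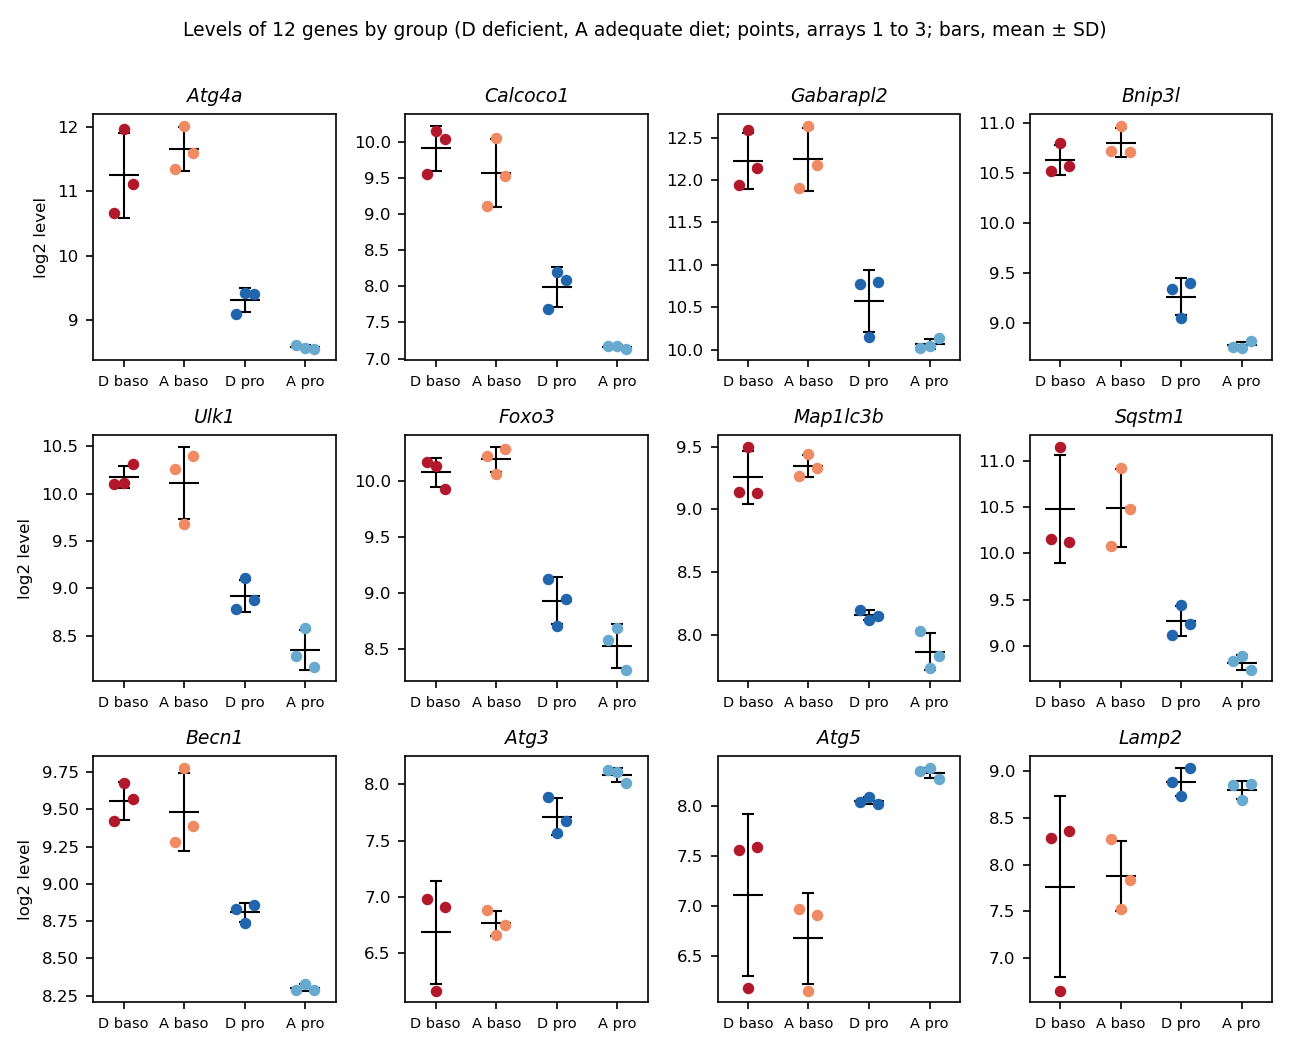
Deposited log2 level of 12 genes, chosen after their values were seen, with 1 point per array and bars for the mean ± SD of each group of 3 (D, deficient; A, adequate; baso, basophilic erythroblasts; pro, proerythroblasts). The Atg4a, Gabarapl2 and Bnip3l points of both basophilic groups lie above all their proerythroblast points, and the Atg3 and Atg5 points lie below theirs.

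Receptors tie a cargo to the growing membrane, and 3 of the 4 tested receptor genes rose. Bnip3l, whose protein sits on the outer mitochondrial membrane and binds LC3-type proteins, had 10.52, 10.80 and 10.57 in deficient and 10.72, 10.97 and 10.71 in adequate basophilic erythroblasts, against 9.34, 9.05 and 9.40 in deficient and 8.76, 8.75 and 8.82 in adequate proerythroblasts. The lowest basophilic array was over 1 log2 unit above the highest proerythroblast array. It rose by 1.37 (SE 0.14, adjusted p = 1.57e-04) on the deficient and 2.02 (SE 0.14, adjusted p = 1.68e-06) on the adequate diet, 2.58-fold and 4.07-fold, the smallest adjusted p of the 35 genes on each diet. Bnip3, its paralog, was dim: 5.17, 5.5 and 5.22 in deficient and 4.98, 5.28 and 5.12 in adequate basophilic erythroblasts, against 4.99, 5.17 and 5.18 in deficient and 4.88, 4.84 and 5.08 in adequate proerythroblasts. These values lie around the filter and were not tested. Calcoco1, known in human cells as a receptor for parts of the endoplasmic reticulum, had 9.55, 10.14 and 10.03 in deficient and 9.11, 10.05 and 9.53 in adequate basophilic erythroblasts, against 7.68, 8.2 and 8.09 in deficient and 7.18, 7.17 and 7.13 in adequate proerythroblasts. The stages did not overlap, and it rose by 1.92 (SE 0.23, adjusted p = 3.44e-04) on the deficient and 2.40 (SE 0.23, adjusted p = 1.64e-05) on the adequate diet. Sqstm1 encodes p62, a receptor for ubiquitin-tagged cargo, and had 10.16, 11.15 and 10.12 in deficient and 10.08, 10.92 and 10.48 in adequate basophilic erythroblasts, against 9.12, 9.44 and 9.24 in deficient and 8.84, 8.89 and 8.74 in adequate proerythroblasts. Replicate 2 was the highest array of both basophilic groups, and the stages did not overlap. Sqstm1 rose by 1.21 (SE 0.27, adjusted p = 0.00746) and 1.67 (SE 0.27, adjusted p = 5.66e-04) on the deficient and adequate diet. Fundc1, the gene of another receptor on the outer mitochondrial membrane, ran lower, with 5.76, 5.87 and 5.85 in deficient and 5.73, 5.85 and 5.89 in adequate basophilic erythroblasts, against 6.24, 6.06 and 6.22 in deficient and 6.59, 6.46 and 6.4 in adequate proerythroblasts. It fell by 0.35 (SE 0.11, adjusted p = 0.0257) on the deficient diet, a call that ended without deficient basophilic replicate 1 or deficient proerythroblast replicate 1 or 3 (adjusted p up to 0.0823), and by 0.66 (SE 0.11, adjusted p = 8.91e-04) on the adequate diet.

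Of the transcription factors, Foxo3 had 10.17, 10.14 and 9.93 in deficient and 10.23, 10.07 and 10.29 in adequate basophilic erythroblasts, against 9.13, 8.71 and 8.95 in deficient and 8.58, 8.69 and 8.31 in adequate proerythroblasts. All basophilic arrays lay above all proerythroblast arrays, and it rose by 1.15 (SE 0.15, adjusted p = 4.74e-04) on the deficient and 1.67 (SE 0.15, adjusted p = 9.40e-06) on the adequate diet. Tfeb, a regulator of lysosome and autophagy genes, had 6.96, 7.48 and 6.90 in deficient and 7.0, 7.09 and 6.97 in adequate basophilic erythroblasts, against 6.75, 6.80 and 6.66 in deficient and 6.74, 6.74 and 6.88 in adequate proerythroblasts. Its basophilic arrays were also all above its proerythroblast arrays, but by little, and the changes of 0.38 and 0.23 on the deficient and adequate diet had adjusted p-values of 0.0515 and 0.199. Lamp1 and Lamp2, genes of the most abundant lysosome membrane proteins, fell on the deficient diet, by 0.87 (SE 0.27, adjusted p = 0.0220) and 1.13 (SE 0.37, adjusted p = 0.0256). Both calls rest on few arrays. The change of Lamp2 was -0.57 without deficient basophilic replicate 2, still past the test. The call for Lamp1 ended without deficient basophilic replicate 2 (-0.53, adjusted p = 0.0551), and both ended without deficient proerythroblast replicate 1 or 3 (adjusted p up to 0.0698 for Lamp1 and 0.0748 for Lamp2). On the adequate diet their changes were -0.57 (adjusted p = 0.0911) and -0.93 (adjusted p = 0.0510).

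The diet comparison in proerythroblasts asked what selenium deficiency changed at the earlier stage, and none of the 35 genes tested passed. The count was 0 of 35 with limma, beside 4.02% of all genes (1.27% higher and 2.76% lower), and 11 of the 35 had an unadjusted p under 0.05, against 14% of all genes (6 of 35 and 10.6% without deficient proerythroblast replicate 3). Of the 35 estimates, 24 were above 0, and the median log2 change was 0.16, against 0.02 over all genes. For 20 genes the 3 deficient arrays did not overlap the 3 adequate ones, 14 above and 6 below, where 31.1% of all genes had no overlap (15.5% above and 15.6% below). Atg9a had 8.37, 9.05 and 8.72 in deficient and 7.97, 7.88 and 7.58 in adequate proerythroblasts, a difference of 0.90 (SE 0.24, adjusted p = 0.0620). The difference was 0.51 (SE 0.14, adjusted p = 0.0745) for Becn1, 0.49 (SE 0.14, adjusted p = 0.0783) for Bnip3l and 0.83 (SE 0.23, adjusted p = 0.0786) for Calcoco1. For these 4 genes every deficient array was above every adequate array, and none passed at 0.05. The values of Atg4d were 0.87 (SE 0.36, adjusted p = 0.280), of Atg4a 0.73 (SE 0.28, adjusted p = 0.217), of Ulk1 0.58 (SE 0.19, adjusted p = 0.140) and of Foxo3 0.40 (SE 0.15, adjusted p = 0.205). Atg2b (-0.60) and Fundc1 (-0.31) lay lower, with no overlap of the diets.

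Same-numbered arrays of the diets deviated together within each stage, so the calls were also made with the replicate number as a block. In basophilic erythroblasts such a pairing was not shown for numbers 1 and 3. With the block within each stage, 10 of the 35 genes passed in proerythroblasts, beside 11.1% of all genes (4.04% higher and 7.05% lower). Of these, 9 were higher on the deficient diet: Atg4d (adjusted p = 0.00548), Calcoco1 (0.00590), Atg9a (0.00844), Atg4a (0.0119), Becn1 (0.0161), Bnip3l (0.0182), Ulk1 (0.0239), Gabarapl2 (0.0434) and Rb1cc1 (0.0465), all adjusted p-values from limma. Atg2b was lower (adjusted p = 0.0137). With 1 block over both stages only Calcoco1 passed (adjusted p = 0.0177), beside 5.47% of all genes. Without replicate 2 of both basophilic groups, which leaves the estimates as they are and changes only the error that all groups share, 14 passed, 10 higher and 4 lower, beside 16.3% of all genes (6.97% higher and 9.37% lower). Sqstm1, Map1lc3b and Atg4b were then among those higher, and Atg3, Atg5 and Fundc1 joined Atg2b among those lower. Without deficient basophilic replicate 2 alone Atg9a, Becn1, Bnip3l, Atg4a and Calcoco1 passed (adjusted p = 0.0215 to 0.0442), beside 8.97% of all genes (3.33% higher). Becn1, Atg9a and Calcoco1 passed without adequate basophilic replicate 2 alone, beside 4.23% of all genes (1.37% higher). Without deficient basophilic replicate 3, the array with conflicting labels, Atg9a alone passed (adjusted p = 0.0483), beside 4.0% of all genes (1.35% higher). In deficient proerythroblasts the erythroid marker mean was higher and the progenitor marker mean lower than in adequate ones, by the ranges given above, with no overlap. Their part in these values was not tested. The mean over 14 macrophage markers overlapped, at 5.80 to 6.60 in deficient and 5.54 to 6.73 in adequate proerythroblasts, as did that over 14 neutrophil markers, at 7.01 to 7.90 and 6.58 to 7.76. The neutrophil marker Mmp9 was higher in deficient proerythroblasts (0.57, adjusted p = 0.0373), while Retnlg (2.30, adjusted p = 0.0504) and Mmp8 (1.5, adjusted p = 0.0715) did not pass. The neutrophil markers Elane (-0.41), Mpo (-0.27), Ltf (-0.26) and Prtn3 (-0.13) had estimates below 0 and did not pass. The megakaryocyte and platelet marker Itga2b was also higher (0.75, adjusted p = 0.0324), while Gp9 (-0.28) and Pf4 (-0.19) of that list were below 0 and did not pass. The part of these cells was not tested. Of the macrophage markers 11 in deficient and 9 in adequate proerythroblasts were above the filter value in all 3 arrays, and of the neutrophil markers 13 and 12.

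**Figure D4:**
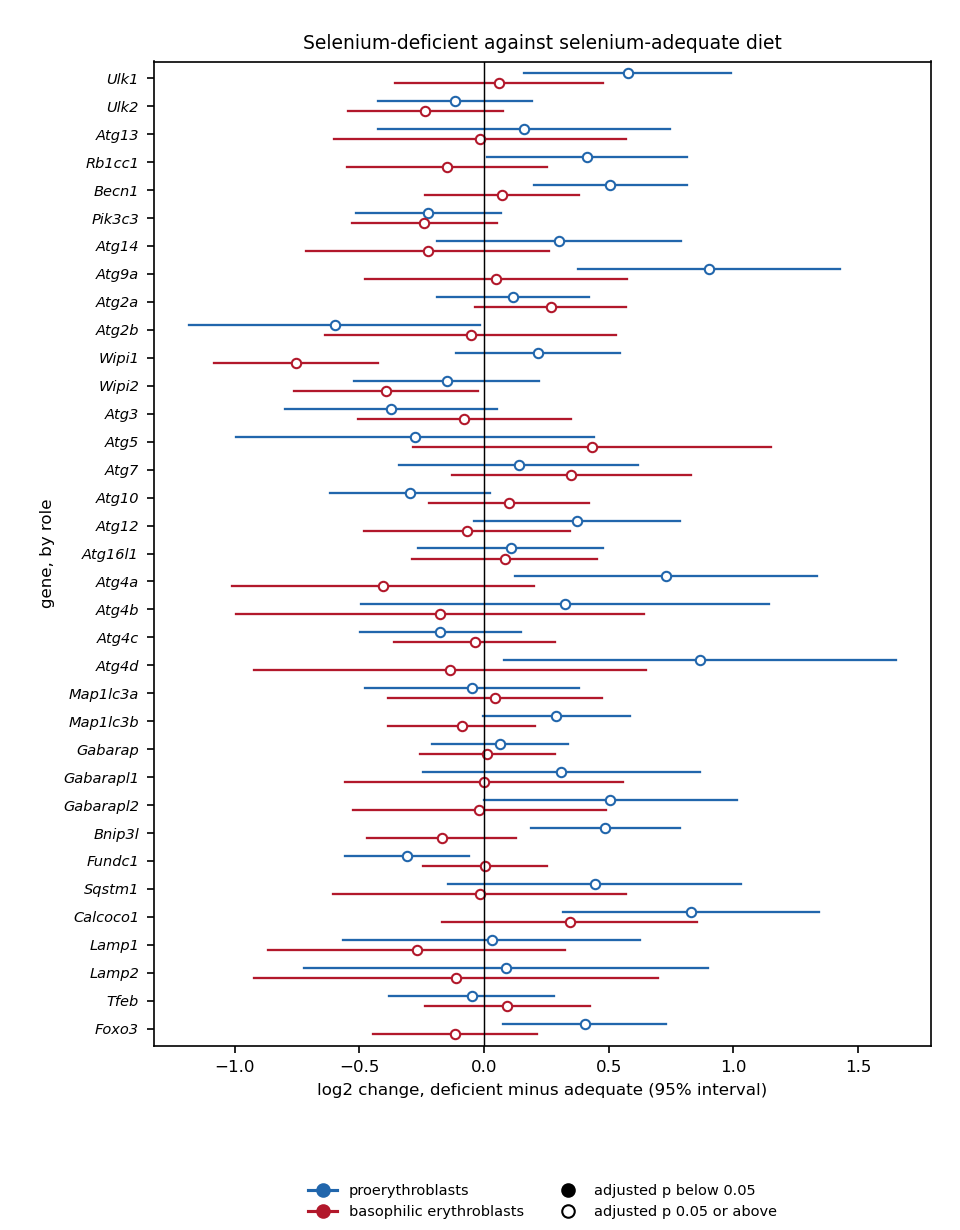
Log2 change from the limma fit, deficient minus adequate diet, with its 95% interval for each tested gene in proerythroblasts and in basophilic erythroblasts; open points have an adjusted p of 0.05 or above. No point is filled, and Wipi1 in basophilic erythroblasts, at -0.75, lies farthest below 0.

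In basophilic erythroblasts the diet gave 0 of 35 calls with limma, beside 0.0199% of all genes, and 2 genes had an unadjusted p under 0.05, against 6.48% of all genes. The median change was -0.04, against 0.04 over all genes, and 13 of 35 estimates were above 0. The directions turned without deficient basophilic replicate 2, with a median of 0.02, against -0.03 over all genes, and 19 of 35 above 0. Deficient and adequate arrays were fully apart for 2 genes, Atg2a above and Wipi1 below, beside 8.04% of all genes. Wipi1 had 8.49, 8.68 and 8.57 in deficient and 9.24, 9.47 and 9.29 in adequate basophilic erythroblasts. Its change of -0.75 (SE 0.15, adjusted p = 0.148) did not pass over all genes, and had an adjusted p of 0.0292 with the block within each stage, the only call among the 35 there (1.45% of all genes passed, 0.944% lower). Without deficient basophilic replicate 2 it was -0.80 (adjusted p = 0.0311). Without replicate 2 of both groups, which leaves 2 arrays each, Atg5 (0.64, adjusted p = 0.00517) and Atg7 (0.45, adjusted p = 0.0293) passed, beside 2.09% of all genes (1.37% higher). With all arrays Atg5 had 0.43 (SE 0.33, adjusted p = 0.954) and Atg7 had 0.35 (SE 0.22, adjusted p = 0.933). Bnip3l had -0.17, with a 95% interval of -0.47 to 0.13, and Ulk1 had 0.06, with an interval of -0.36 to 0.48.

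The diet by stage interaction subtracts the proerythroblast diet effect from the basophilic one and tests whether the stages responded differently. It gave 0 of 35 calls with limma, beside 0.303% of all genes, and 5 genes had an unadjusted p under 0.05, against 9.15% of all genes. Its median over the 35 genes was -0.30, against 0.03 over all genes, but -0.13, against -0.04, without deficient basophilic replicate 2, and -0.18, against 0.02, without adequate basophilic replicate 1. Wipi1 came nearest, with -0.97 (SE 0.21, adjusted p = 0.0943). The value was -0.66 (SE 0.19, adjusted p = 0.226) for Bnip3l, -1.14 (SE 0.39, adjusted p = 0.307) for Atg4a, -0.86 (SE 0.34, adjusted p = 0.420) for Atg9a and -0.52 (SE 0.21, adjusted p = 0.440) for Foxo3. With the block within each stage Wipi1 (adjusted p = 0.0277), Atg4a (0.0269) and Atg4d (-1.0, 0.0372) passed, all negative, beside 2.93% of all genes (1.42% negative). Without replicate 2 of both basophilic groups Wipi1, Atg4a, Atg4d and Bnip3l were negative and Atg5 positive among 5 calls, beside 3.48% of all genes. Without deficient basophilic replicate 2 alone Wipi1 (-1.02, adjusted p = 0.0420) and Atg4a (-1.50, adjusted p = 0.0240) passed, beside 1.4% of all genes (0.417% negative).

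Further genes of the pathway were taken from lists written by role. On the deficient diet 31.1% of all genes were called higher and 24.9% lower with stage, and on the adequate diet 28.7% and 25.6%. Of 17 other cargo and mitophagy genes, 5 rose and 6 fell with stage on the deficient diet, and 4 rose and 6 fell on the adequate diet. Ncoa4, the receptor that carries ferritin to autophagy, rose by 1.64 and 2.92 on the deficient and adequate diet, Nbr1, a receptor for ubiquitin-tagged cargo, by 1.19 and 1.45, and Rhot1, a mitochondrial GTPase, fell (-1.1 and -1.71). Of 13 other initiation and nucleation genes, 2 rose and 4 fell on the deficient diet, and 3 rose and 6 fell on the adequate diet, with Wdr45, a relative of the Wipi genes, higher (0.96 and 1.17) and Pik3r4, a partner of Pik3c3, lower (-0.40 and -0.84). Of 14 fusion genes, 2 rose and 4 fell on the deficient and 2 rose and 5 fell on the adequate diet. Those that fell on both include Vps33a (-1.20 and -1.52), Vps41 (-0.93 and -1.24) and Vps16 (-0.60 and -0.72), which encode tethering subunits of lysosome fusion. Of 16 TORC1 and AMPK genes, 1 rose and 5 fell on the deficient and 3 rose and 4 fell on the adequate diet. Of 23 lysosome genes, 3 rose and 10 fell on the deficient and 4 rose and 10 fell on the adequate diet, with the proton pump gene Atp6v1h at -1.39 and -1.81. The median log2 changes of these 5 lists lay between -0.45 and -0.25 on the deficient and between -0.51 and -0.06 on the adequate diet, against 0.08 and 0.12 over all genes. Without replicate 2 of both basophilic groups, 5 TORC1 and AMPK genes rose and 7 fell on the adequate diet, where 38.9% of all genes rose and 29.3% fell.

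In proerythroblasts Ncoa4 (1.24, SE 0.21, adjusted p = 0.00668) was the only 1 of 17 cargo genes to rise, and Rragd, a Rag GTPase gene that links amino acids to TORC1, the only 1 of 16 TORC1 and AMPK genes (2.23, SE 0.29, adjusted p = 0.00169). Of 23 lysosome genes 5 fell there, beside 2.76% of all genes, with a list median of -0.25. Among them were Gusb, an enzyme that degrades glycosaminoglycans (-0.83, adjusted p = 0.0119), Atp6v1h (-0.73, adjusted p = 0.0199), the membrane protein gene Scarb2 (-0.75, adjusted p = 0.0443) and the cathepsin gene Ctsl (-0.59, adjusted p = 0.0471). With the block within each stage 8 lysosome genes fell and 1 rose, beside 7.05% of all genes lower and 4.04% higher. Without replicate 2 of both basophilic groups 6 fell and 1 rose, beside 9.37% lower and 6.97% higher. Of the cargo genes, 4 then rose and 3 fell. In basophilic erythroblasts and for the interaction these lists held 0 calls with limma, beside 0.0199% and 0.303% of all genes. With the block within each stage 1 fusion gene was higher in basophilic erythroblasts, beside 0.507% of all genes.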

How the data were processed

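The authors deposited log2 values made with Affymetrix Expression Console, per the submitters' processing notes; its version, summarisation and normalization are not given in the sources used here. Total RNA (5 ng per sample) was labelled with the Affymetrix WT Pico kit, per the labels' protocols. Of 72688 features, 186 were controls, 31258 named 1 gene, 1492 several and 39752 none, and 1789 symbols were updated to the present one. Of 30702 genes, 441 had several features, and that with the highest mean was used. Testing required 3 or more arrays with values over 5.3, the median over the whole table, and 20128 genes met this.

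Each gene was fitted with limma 3.58.1 (lmFit with a mean per group over all 12 arrays, eBayes) in R 4.3.3, with Benjamini-Hochberg adjustment over the tested genes and a threshold of 0.05. Groups came from the titles. The number of arrays limits the precision. The fit was tested on simulated data. Deviations of same-numbered arrays from their group means correlated over the tested genes at 0.457, 0.180 and 0.524 between the diets in proerythroblasts. In basophilic erythroblasts they correlated at 0.717, 0.782 and 0.540. All were above 0.1, so the numbers were used to pair the diets within a stage. This use comes from the data and not from the labels. In basophilic erythroblasts the values cannot show that numbers 1 and 3 pair, because replicate 2 was unlike its group on both diets. There deficient replicate 3 correlated over all features at 0.984 with adequate replicate 1 and at 0.983 with adequate replicate 3. Between the stages the correlations of deviations were 0.254, 0.195 and 0.097 on the deficient and 0.207, -0.068 and -0.165 on the adequate diet.

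Members and lists were chosen with earlier results of these data known. Every member is named. Values in all arrays are given for the 20 called members with the smallest adjusted p, and for Bnip3l, Bnip3, Ulk1, Sqstm1, Map1lc3b, Gabarapl1, Tfeb and Foxo3. Of each further list, examples come from the 4 called genes with the smallest adjusted p. Each analysis was repeated with another scaling (quantiles, medians), another filter (none, or above 6.62), another variance model (trended, robust), weights per array, a replicate block over both stages or within each, averaged features, only the arrays compared, a 1.5-fold threshold or an adjusted p of 0.1. It was also repeated without single arrays and without replicate 2 of both basophilic groups.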

Additional observations from a re-analysis of the deposited data

How the results depend on the processing

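The counts of members called for stage stayed within 1.5 times the reported count in every alternative run. On the deficient diet 16 of 23 calls held in each, and the other 7 (Pik3c3, Atg9a, Atg5, Map1lc3a, Fundc1, Lamp1 and Lamp2) ended in some; on the adequate diet 22 of 27 held, and Pik3c3, Wipi2, Atg10, Atg4d and Map1lc3a did not. No called change reversed. Estimates that were not called changed sign in some alternative for 6 members (stage, deficient diet), 3 (stage, adequate diet), 2 (diet, proerythroblasts), 22 (diet, basophilic erythroblasts) and 11 (interaction). For the diet in proerythroblasts, in place of 0 members, 1 passed with quantile normalization, 20 with array weights (whose estimation stopped before convergence), 1 with the replicate block, 10 with the replicate block within each stage, 11 with the arrays of the contrast only, 14 without replicate 2 of both basophilic groups, and 4 at an adjusted p of 0.1. Leaving out 1 array gave 0 to 5, the highest without deficient basophilic replicate 2 (8.97% of all genes). The count was 3 without adequate basophilic replicate 2 (4.23%) and 1 without deficient basophilic replicate 3 (4.0%). For the diet in basophilic erythroblasts 1 passed with the replicate block within each stage (1.45% of all genes) and 2 without replicate 2 of both groups (2.09%). Leaving out 1 array gave 0 to 1, the highest without deficient basophilic replicate 2 (1.44%). For the interaction 4 passed with array weights (2.39% of all genes), 3 with the replicate block within each stage (2.93%) and 5 without replicate 2 of both basophilic groups (3.48%). At an adjusted p of 0.1, again with no share counted, 1 passed. Leaving out 1 array gave 0 to 2, the highest without deficient basophilic replicate 2 (1.4%). Except where an alternative leaves out arrays or sets another threshold, the cause was not tested. With the replicate block, over both stages and within each, the stage counts were 26 and 27 on the deficient diet (62.7% and 72.5% of all genes). On the adequate diet they were 29 and 30 (61.1% and 72.5%). The pairing of numbers did not extend across stages, so this says nothing of the strength of a stage effect.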
